A study of Mus musculus with 4 samples.

Results

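Transporters of amino acids, glucose and monocarboxylates were read from bone marrow-derived macrophages of wild-type and Batf2-/- mice, with and without the TLR7 ligand R848. The members were all probes that the authors' processed table names as Slc1a, Slc2a, Slc3a, Slc6a, Slc7a, Slc16a, Slc36a, Slc38a or Slc43a followed by a number, and that rose well above background on 1 or more of the 4 arrays. The rule took 108 of the 56605 probes on the array, and these stood for 68 of the 18787 genes that the table names. Slc7a6os (2 probes) and Slc2a4rg-ps (1 probe) are not transporters and were left out.

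All mice were male and of the C57BL/6J strain, and their age is not given in the labels. Batf2 encodes a basic leucine zipper factor of the AP-1 family, and the knockout mice carried it as Batf2-/-. Marrow cells from the femur were grown in RPMI-1640 with 10% serum and macrophage colony-stimulating factor at 3 ng/ml, with fresh medium on day 3 and harvest on day 5. R848 (resiquimod) was given at 100 ng/ml and cells were taken after 8 h, and untreated cells served as the zero time. The 4 groups were wild type untreated, wild type with R848, knockout untreated and knockout with R848, and each had 1 array. No difference below therefore has a replicate check, and no p-value is given. How many mice or cultures stood behind an array is not given in the labels.

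Solute carriers of these families move nutrients across the plasma membrane and across the membranes of lysosomes. Macrophages that meet a microbial ligand are known to take up more glucose and to release lactate, to import cystine for glutathione, and to import arginine for nitric oxide and polyamine synthesis. Several Slc7 proteins reach the cell surface only when joined to a heavy chain of the Slc3 family, and several Slc16 proteins need basigin or embigin. Lysosomal members such as Slc36a1 and Slc38a9 also take part in reporting amino acid supply to the kinase complex mTORC1.

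A scaled signal is given for each array, on which 100 stands for that array's 75th percentile. The level of a gene is that of its brightest probe, and levels of different probes or genes are not compared because probes hybridise with different efficiency. A gene was called when its signal on 2 arrays lay at least 2-fold apart. On probes spotted 10 times, the same difference taken from the separate spots had a median SD of 0.057 (log2) in the wild-type response, 0.048 in the knockout response, 0.050 between the untreated genotypes and 0.052 between the genotypes with R848. For probes with a scaled signal under 30 this SD was 0.13 to 0.22, over 8 to 11 probes. Each member probe had 1 spot. These SDs cover technical error within an array and leave out the variation between cultures.

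Of the member probes, 105 and 101 were well above background in wild type (untreated and with R848), and 106 and 108 in the knockout. The processed table, from which the members were taken, follows the last of these arrays. All of its 39374 spots were well above background there, and on that array 39377 spots were. A transporter below background on the knockout array with R848 could therefore not become a member. For 65 of the 68 genes the chosen probe was well above background on all 4 arrays, and for none was it so on the knockout array with R848 alone.

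The Batf2 probe, which the table does not list, read 12.3 and 35.7 in wild type untreated and with R848, and 10.2 and 4.28 in the knockout. The last value did not count as above background. After R848 the knockout was at least 6.20-fold lower than wild type, while untreated the values lay 1.21-fold apart. Whether the probe lies in the deleted part is not given in the labels. All 8 macrophage markers examined, among them Adgre1, Csf1r, Cd68 and Lyz2, were well above background on all 4 arrays. In bulk RNA, fewer cells of a type and less RNA per cell cannot be told apart.

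After 8 h of R848, a small set of transporters was higher in both genotypes, led by the cystine/glutamate exchanger Slc7a11, the cationic amino acid transporter Slc7a2 and the hexose transporter Slc2a6, which were 10.9-fold to 21.4-fold higher. The glucose transporter Slc2a1, the arginine transporter Slc7a1, the glycine transporter Slc6a9, the betaine and GABA transporters Slc6a12 and Slc6a13, and the aromatic amino acid transporter Slc16a10 were 2.05-fold to 4.71-fold higher. Lower in both genotypes were Slc36a1, Slc36a2, the creatine transporter Slc6a8 and Slc7a15.

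In wild type 9 of 66 measured transporter genes were at least 2-fold higher, where 5.94% of all 18064 measured genes were. A further 5 were at least 2-fold lower, where 6.51% of all genes were. In the knockout 12 of 68 were higher and 5 lower, against 7.27% and 5.64% of all 18787 genes. The higher calls thus made up 13.6% and 17.6% of the transporters, above the share over all genes in both genotypes, and the lower calls 7.58% and 7.35%, close to it. The other 233 solute carrier genes of the Slc and Slco families gave 20 higher and 14 lower of 223 in wild type, and 27 higher and 15 lower of 233 in the knockout. The median difference over the transporters was 0.05 (log2) in wild type and -0.05 in the knockout, beside -0.02 and -0.03 over all genes. When each array was centred on its median instead, the median over all genes moved to 0.14 and 0.11, and the share of higher among called genes moved from 47.7% to 62.4% in wild type and from 56.3% to 68.3% in the knockout.

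The 2 responses share no array. All 9 genes called higher in wild type were also called higher in the knockout, and 4 of the 5 called lower were also called lower. Most calls were shared over all genes too, 777 of 1073 higher and 615 of 1176 lower. Over the other Slc and Slco genes 17 of 20 and 10 of 14 were shared. The knockout called 3 more genes higher, Slc16a3, Slc16a9 and Slc7a12. It alone called Slc1a6 lower, and wild type alone called Slc2a3 lower. Of 66 genes measured in both, 63 had responses less than 2-fold apart, close to the share over all genes (17104 of 18064). In neither response were 48 of the 66 called, beside 14972 of the 18064. Normexp background correction together with quantile normalization left Slc16a10, Slc6a13 and Slc6a9 below 2-fold in wild type, and Slc16a10, Slc16a3, Slc16a9, Slc6a13, Slc7a1 and Slc7a12 in the knockout. Quantile normalization alone also left Slc16a10 below it in the knockout. Just under the threshold in wild type lay Slc7a12 (0.93, log2), Slc16a3 (0.92) and Slc7a5 (0.91).

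**Figure D1:**
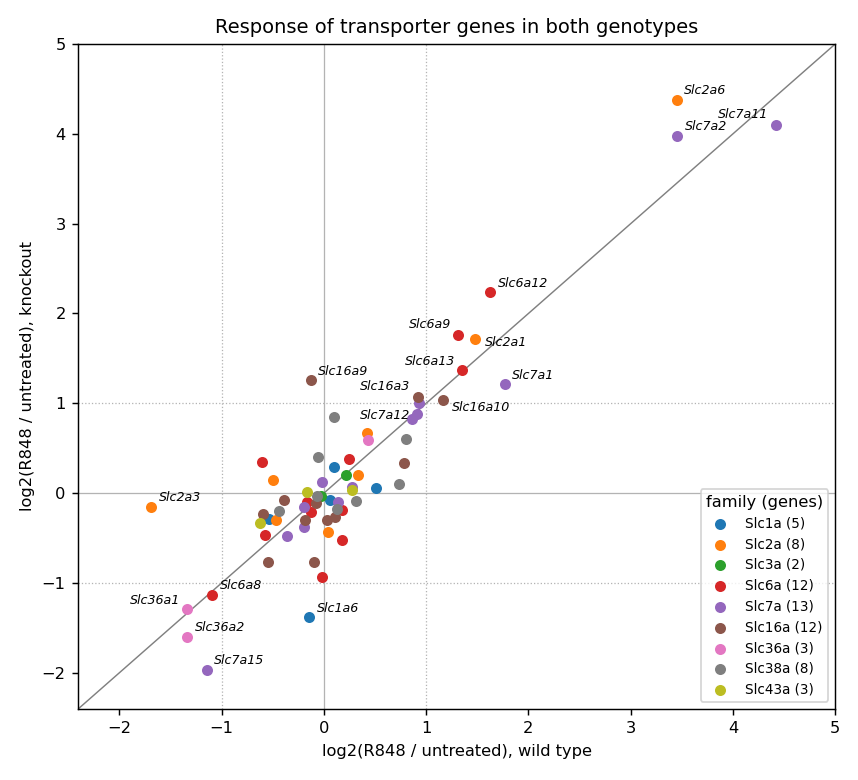
Response of each transporter gene as log2(R848 / untreated) in wild type (x axis) and knockout (y axis), 1 point per gene, coloured by family, with dotted lines at 2-fold and a solid line where both responses are equal. Slc7a11, Slc7a2 and Slc2a6 stand at the upper right, and Slc2a3, Slc1a6 and Slc16a9 lie farthest from the solid line.

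RefSeq promoter windows were at hand for 46 of the 68 genes, for 8 of the 9 higher in both genotypes and for 2 of the 4 lower in both. The 250 bases before the start are shown for 4 genes that were higher in both genotypes and for 1 that was lower in both, because these genes moved together across 2 separate pairs of arrays. They are written 5′ to 3′ on the gene's strand from RefSeq on GRCm38.p6, at chr3:50443614-50443863 (minus strand) for Slc7a11, chr5:148399905-148400154 (minus) for Slc7a1, chr2:27027999-27028248 (minus) for Slc2a6, chr4:119108495-119108744 (plus) for Slc2a1 and chr11:55204090-55204339 (plus) for Slc36a1. Slc7a1 has a further window at chr5:148392816-148393065 (minus), not shown, which held none of the motifs. Capitals mark matches, on either strand, to the motifs named below.
Slc7a11: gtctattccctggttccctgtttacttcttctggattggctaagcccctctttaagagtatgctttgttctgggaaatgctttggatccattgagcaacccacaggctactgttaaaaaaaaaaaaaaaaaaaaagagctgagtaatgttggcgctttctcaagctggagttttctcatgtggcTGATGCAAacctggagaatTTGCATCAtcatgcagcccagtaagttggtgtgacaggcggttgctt
Slc7a1: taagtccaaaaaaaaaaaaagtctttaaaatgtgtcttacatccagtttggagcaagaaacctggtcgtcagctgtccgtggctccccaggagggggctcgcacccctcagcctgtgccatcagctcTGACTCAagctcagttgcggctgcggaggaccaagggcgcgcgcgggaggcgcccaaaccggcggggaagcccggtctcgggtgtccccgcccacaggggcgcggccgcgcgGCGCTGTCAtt
Slc2a6: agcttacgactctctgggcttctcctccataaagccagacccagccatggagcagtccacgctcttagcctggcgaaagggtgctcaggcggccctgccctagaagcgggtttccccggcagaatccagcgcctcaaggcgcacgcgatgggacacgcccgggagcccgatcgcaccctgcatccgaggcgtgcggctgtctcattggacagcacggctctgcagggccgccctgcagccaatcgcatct
Slc2a1: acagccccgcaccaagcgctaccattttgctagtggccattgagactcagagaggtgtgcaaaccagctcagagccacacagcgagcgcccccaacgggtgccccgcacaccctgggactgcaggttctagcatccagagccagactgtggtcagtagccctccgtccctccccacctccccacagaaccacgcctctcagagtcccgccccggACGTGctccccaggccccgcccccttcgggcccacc
Slc36a1: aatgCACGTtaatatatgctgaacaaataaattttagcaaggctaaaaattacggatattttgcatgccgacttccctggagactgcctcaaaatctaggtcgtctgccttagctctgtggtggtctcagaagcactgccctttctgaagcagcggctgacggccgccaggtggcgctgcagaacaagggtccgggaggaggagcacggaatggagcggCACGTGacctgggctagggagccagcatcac

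TGATGNAA is the core of the element to which ATF4 and C/EBP dimers are known to bind. Slc7a11 held it in both orientations, from 66 to 59 and from 47 to 40 bases before the start. It was the only gene of the 8 to hold this motif, which 3.45% of 32851 windows of all genes contained. TGACNNNGC, the antioxidant response element recognised by NRF2, stood in 3 of the 8 genes (Slc6a13, Slc6a9 and Slc7a1) and in 10.2% of all windows. TGANTCA, which AP-1 factors recognise, stood in 2 (Slc6a12 and Slc7a1) and in 6.75%. A kappa B consensus stood in the neighbouring genes Slc6a12 and Slc6a13 and in 7.25% of all windows. ACGTG, the core of the hypoxia response element, stood in 2 of the 8 (Slc2a1 and Slc6a13), in both windowed genes that were lower (Slc36a1 and Slc7a15), and in 16.6% of all windows. CACGTG, bound by MiT and MYC family factors and overlapping ACGTG by its letters, stood in Slc36a1 from 31 to 26 bases before the start and in 6.02% of windows. The interferon-stimulated response element, in its plain consensus, was in none of the 46 member genes and in 2.98% of all windows. The window of Slc2a6 held none of these motifs. The counts are of genes with a match in any of their windows, the shares are of single windows, and a match is a description of the letters.

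The largest wild-type difference among the transporters was that of the cystine carrier. Slc7a11, the light chain of the exchanger that takes up cystine and releases glutamate, had a scaled signal of 24.1 and 515 in wild type untreated and with R848, and of 49.2 and 844 in the knockout. The R848 array was above the untreated array of the same genotype by 21.4-fold in wild type and 17.1-fold in the knockout. Its 4 probes all read a higher signal, by 4.29 to 4.42 (log2) in wild type and 3.65 to 4.60 in the knockout. For 1 of them the wild-type value is a lower bound.

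The heavy chain Slc3a2 (CD98), which carries Slc7a11, Slc7a5 and other light chains to the surface, was read by 3 probes that did not give the same answer. The brightest read 72906 and 71633 in wild type untreated and with R848, and 77779 and 76014 in the knockout, so the 4 arrays were nearly level. A second probe read 2753 and 5648 in wild type and 2826 and 7372 in the knockout, which is 2.05-fold and 2.61-fold higher with R848. The third read 199.7 and 334 in wild type and 185 and 468 in the knockout, 1.67-fold and 2.54-fold higher. By the brightest probe Slc3a2 was not called, and by the median over its probes it was called higher in the knockout. The other heavy chain, Slc3a1 (rBAT), lay between 14.3 and 20.05 on all 4 arrays.

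Genes that make glutathione from the imported cystine were given beside the carrier. In wild type 4 of 5 measured genes of this list were at least 2-fold higher, with a list median of 1.37 (log2), and in the knockout 4 of 6 with a median of 1.54; none was lower. They were the 2 subunits of glutamate-cysteine ligase, Gclc (1.37 and 2.46, log2, in wild type and knockout) and Gclm (1.37 and 1.34), glutathione synthetase Gss (2.14 and 2.67), and glutathione reductase Gsr (1.23 and 1.75).

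The cationic amino acid transporters Slc7a1 and Slc7a2 were higher as well. Slc7a2 (CAT2), the cationic amino acid transporter known for supplying arginine in activated macrophages, had a scaled signal of 44.7 and 490.5 in wild type untreated and with R848, and 53.8 and 848.5 in the knockout. The 2 R848 arrays were 11.0-fold and 15.8-fold above the untreated arrays of their own genotype. Slc7a1 (CAT1), the more widely expressed carrier of the same substrates, read 152 and 519 in wild type and 181 and 419 in the knockout, 3.41-fold and 2.32-fold higher. Slc7a3 (CAT3) was well above background only in the knockout, at 9.06 untreated and 8.62 with R848. Of the 4 measured genes of arginine metabolism, argininosuccinate synthase Ass1 alone was called, higher by 3.33 (log2) in wild type and 3.89 in the knockout. Inducible nitric oxide synthase Nos2, on the same list, differed by -0.07 and 0.44. Arg1 and Arg2, also on this list, were not among the measured genes, so nothing is said of them.

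Among the carriers of large neutral amino acids, 2 light chains lay just below the threshold in both genotypes. Slc7a5 (LAT1), the main leucine importer of dividing and activated cells, read 95.8 and 179.9 in wild type and 64.8 and 119 in the knockout, 1.88-fold and 1.84-fold higher with R848. Slc7a6 (y+LAT2), which exchanges cationic for neutral amino acids, read 32.9 and 59.6 in wild type and 31.8 and 56.3 in the knockout, 1.81-fold and 1.77-fold higher. With median centring both were called in wild type, and Slc7a5 also in the knockout. Their relatives were not called: Slc7a7 (y+LAT1), whose loss causes lysinuric protein intolerance, was at -0.19 and -0.38 (log2), and Slc7a8 (LAT2) at -0.02 and 0.13.

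Slc16a10 (TAT1), which moves aromatic amino acids down their gradient, read 94.8 and 213 in wild type and 119 and 243 in the knockout, 2.24-fold and 2.05-fold higher. Its other 2 probes went the same way by less, 0.61 to 0.96 (log2), so the mean over probes did not reach 2-fold in either genotype. Slc7a12, a light chain that needs a partner other than Slc3a1 or Slc3a2, read 11.2 and 21.3 in wild type and 12.3 and 24.7 in the knockout. It was 1.90-fold and 2.01-fold higher, and at this brightness the spot SD alone was 0.13 to 0.18 (log2). Slc7a4, Slc7a10, Slc7a13 and Slc7a14 lay between -0.48 and 0.28 (log2) in both responses.

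Slc7a15 went the other way within the same family. It read 38.8 and 17.6 in wild type and 84.0 and 21.5 in the knockout, 2.21-fold and 3.91-fold lower with R848. The untreated knockout array was the highest of the 4 and the 2 R848 arrays were the lowest. Under median centring and both quantile settings the wild-type difference was no longer 2-fold.

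Glucose carriers were split. Slc2a1 (GLUT1), the main glucose importer of activated macrophages, read 419 and 1169 in wild type and 605 and 1984 in the knockout, 2.79-fold and 3.28-fold higher. Slc2a6 (GLUT6), a hexose carrier of lysosomal membranes, read 37.2 and 406 in wild type and 17.5 and 364 in the knockout, 10.9-fold and 20.8-fold higher. Its second probe was 3.08 (log2) higher in wild type and at least 4.19 higher in the knockout. For both genes the R848 array lay above the untreated array of its own genotype.

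Slc2a3 (GLUT3), a high-affinity glucose carrier, read 304 and 94.4 in wild type untreated and with R848, and 113 and 102 in the knockout. Wild type untreated stood alone as the high array, so the gene was 3.22-fold lower with R848 in wild type and 1.11-fold lower in the knockout. Its second probe read 114 and 45.9 in wild type and 71.3 and 24.1 in the knockout, 2.48-fold lower in wild type and 2.96-fold lower in the knockout. The probes thus agreed on the wild-type response and disagreed on the knockout's. With the mean over both probes the responses of Slc2a3 were less than 2-fold apart.

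The other 5 members of Slc2 were not called. Slc2a12 (GLUT12) was 0.43 (log2) higher in wild type and 0.67 higher in the knockout, and the myo-inositol carrier Slc2a13 0.33 and 0.20. Slc2a8, an intracellular hexose carrier, was at -0.47 and -0.30, and the urate carrier Slc2a9 at 0.04 and -0.43. Slc2a2 (GLUT2), the carrier of liver and pancreatic beta cells, lay between 10.4 and 14.6 on all 4 arrays.

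Of the 21 glycolysis and lactate genes given beside the carriers, none was at least 2-fold higher in wild type and 1 was lower, with a list median of 0.29 (log2). In the knockout 2 were higher, phosphofructokinase Pfkl (1.06) and the regulator Pfkfb3 (1.31), and 1 lower, with a median of 0.13. The lower gene in both genotypes was the lactate dehydrogenase subunit Ldhb, at -2.14 and -1.77. Its partner subunit Ldha was at 0.33 and 0.13.

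Among the monocarboxylate carriers of Slc16, Slc16a3 and Slc16a9 were called in the knockout only. Slc16a3 (MCT4), the lactate exporter of glycolytic cells, read 134.6 and 254 in wild type and 131 and 276 in the knockout, 1.89-fold and 2.10-fold higher with R848. The genotypes lay close together at both times, and the 2-fold line fell between their responses. Slc16a1 (MCT1), which moves lactate and pyruvate in either direction, read 119 and 90.9 in wild type and 90.1 and 85.7 in the knockout. The chaperone of both, Bsg, was at -0.27 and -0.17 (log2).

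Slc16a7 (MCT2), a high-affinity pyruvate and lactate carrier, was read by 5 probes. The brightest read 332 and 340 in wild type and 391 and 317 in the knockout, with no called difference. The other 4 were all lower with R848, by 1.95-fold to 4.93-fold in wild type and by 1.77-fold to 3.50-fold in the knockout. By the mean or the median over probes Slc16a7 was called lower in both genotypes. Embigin (Emb), the partner that carries MCT2 to the surface, was 1.09 (log2) lower in wild type and 0.66 lower in the knockout.

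Slc16a9 (MCT9), a carrier of carnitine and urate, read 41.6 and 38.1 in wild type and 26.3 and 62.8 in the knockout. The knockout with R848 was the highest array and the untreated knockout the lowest, so the gene was 2.39-fold higher in the knockout and 1.09-fold lower in wild type. The second probe read 47.1 and 35.1 in wild type and 12.9 and 42.3 in the knockout, 1.34-fold lower and 3.28-fold higher. Both probes therefore gave a difference between the responses of over 2-fold, at 1.38 and 2.14 (log2). The orphan Slc16a6 was at 0.11 and -0.27 (log2) in wild type and knockout.

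**Figure D2:**
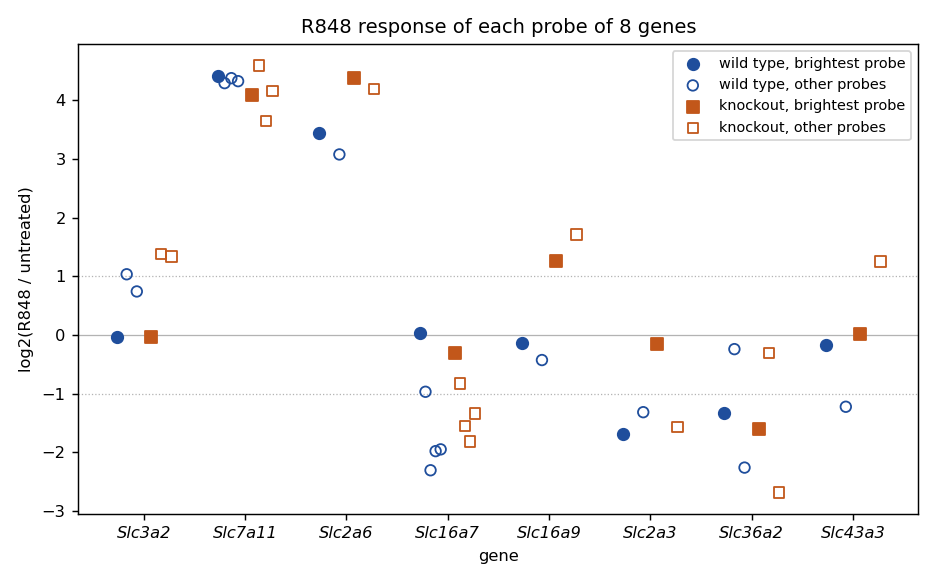
Response of every probe of 8 genes as log2(R848 / untreated), with circles for wild type and squares for knockout, filled for the brightest probe and open for the others, and dotted lines at 2-fold. Lower bounds are drawn at the bound. The probes of Slc7a11 and Slc2a6 lie together, whereas the brightest probes of Slc3a2 and Slc16a7 lie near 0 apart from their other probes, and those of Slc2a3 and Slc43a3 separate in the knockout.

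Among the sodium- and chloride-coupled carriers of the Slc6 family, 3 were higher in both genotypes. Slc6a9 (GLYT1), the glycine carrier, read 18.4 and 45.8 in wild type and 23.2 and 78.6 in the knockout, 2.49-fold and 3.39-fold higher. Slc6a12 (BGT1), which carries betaine and GABA, read 21.8 and 67.4 in wild type and 10.2 and 47.9 in the knockout, 3.09-fold and 4.71-fold higher. Slc6a13 (GAT2), a GABA and taurine carrier, read 49.9 and 127 in wild type and 10.8 and 27.8 in the knockout, 2.55-fold and 2.58-fold higher. For Slc6a13 even the untreated wild-type array lay above both knockout arrays. Slc6a12 and Slc6a13 are neighbours on chromosome 6, and the same R848 direction in both genotypes and a lower untreated knockout value were shared by them.

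Slc6a8, the creatine carrier, read 464 and 218 in wild type and 695 and 318 in the knockout, 2.13-fold and 2.19-fold lower with R848. Its second probe was at -0.96 (log2) in wild type and -0.76 in the knockout. With median centring neither response of Slc6a8 was 2-fold, and with the mean over probes the knockout's was not. The taurine carrier Slc6a6 read 4481 and 3004 in wild type and 5474 and 3950 in the knockout, 0.58 and 0.47 (log2) lower. The serotonin carrier Slc6a4 read 405 and 267 in wild type and 216 and 275 in the knockout, without reaching 2-fold in any comparison, and its second probe was at -0.06 and -0.16 (log2). Slc6a2, Slc6a7, Slc6a16, Slc6a17 and Slc6a20a were not called in either response.

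Of the proton-coupled carriers of the Slc36 family, 2 of 3 were lower with R848 in both genotypes. Slc36a1 (PAT1), which exports amino acids from lysosomes, read 305 and 121 in wild type and 276 and 113 in the knockout, 2.53-fold and 2.44-fold lower with R848. Its second probe was 1.25 and 1.38 (log2) lower. Slc36a2 (PAT2), a glycine and proline carrier and the neighbour of Slc36a1 on chromosome 11, read 231 and 91.7 in wild type and 305 and 101 in the knockout, 2.52-fold and 3.03-fold lower. Its other probes were at -0.24 and -2.26 (log2) in wild type and at -0.31 and -2.68 in the knockout, so all went the same way by unequal amounts. Slc36a4 (PAT4), a high-affinity proline and tryptophan carrier on another chromosome, read 155 and 209 in wild type and 202 and 304 in the knockout, 0.43 and 0.59 (log2) higher.

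None of the 8 Slc38 genes was called in any comparison. They include the glutamine carriers Slc38a1 (-0.44 and -0.20, log2, in wild type and knockout), Slc38a2 (-0.05 and 0.41) and the lysosomal Slc38a7 (0.10 and 0.85). The other probes of Slc38a1 were at 0.06 and 0.01 in wild type, and the second probe of Slc38a2 at 0.34 in wild type and -0.06 in the knockout. Slc38a9, the lysosomal arginine sensor of mTORC1, read 5278 and 5047 in wild type and 4954 and 4865 in the knockout by its brightest probe. Its second probe read 75.6 and 62.4 in wild type and 127 and 79.4 in the knockout, 0.28 and 0.68 (log2) lower. Of the 9 measured genes of mTORC1 amino acid sensing none was called in either response, with list medians of -0.13 and -0.18. Of 7 measured glutamine and glutamate genes none was higher and 2 were lower in both genotypes, glutamine synthetase Glul (-1.62 and -1.48) and aspartate aminotransferase Got1 (-1.32 and -1.56).

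By their brightest probes, the glutamate and neutral amino acid carriers of Slc1 held 1 gene with a called response. Slc1a6 (EAAT4), a glutamate carrier best known from cerebellar neurons, read 64.3 and 58.3 in wild type and 168 and 64.7 in the knockout. The untreated knockout array alone was high, so the gene was 2.60-fold lower with R848 in the knockout and 1.102-fold lower in wild type. Slc1a4 (ASCT1) read 32260 and 34463 in wild type and 31546 and 38671 in the knockout. The glutamine carrier Slc1a5 (ASCT2) read 68.3 and 47.2 in wild type and 58.4 and 47.9 in the knockout, and the glial glutamate carrier Slc1a3 (GLAST) 17.9 and 25.6, and 25.5 and 26.6. For Slc1a2 the 2 probes disagreed. Its brightest probe lay between 14.8 and 16.7 on all 4 arrays. The second was not well above background untreated and read 11.6 in wild type and 13.9 in the knockout with R848. That is at least 2.68-fold and 3.18-fold higher, at a dim signal.

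In the Slc43 family no brightest probe was called in a response. Slc43a2 (LAT4), a carrier of branched-chain amino acids and methionine, read 753 and 490 in wild type and 786 and 625 in the knockout, 0.62 and 0.33 (log2) lower. Slc43a3, a carrier of purine nucleobases, read 298 and 267 in wild type and 124 and 125 in the knockout. Its second probe read 44.4 and 19.1 in wild type and 12.0 and 28.6 in the knockout, 2.33-fold lower and 2.38-fold higher with R848. The 2 probes therefore disagreed on the size of both responses, and on the direction of the genotype difference with R848.

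**Figure D3:**
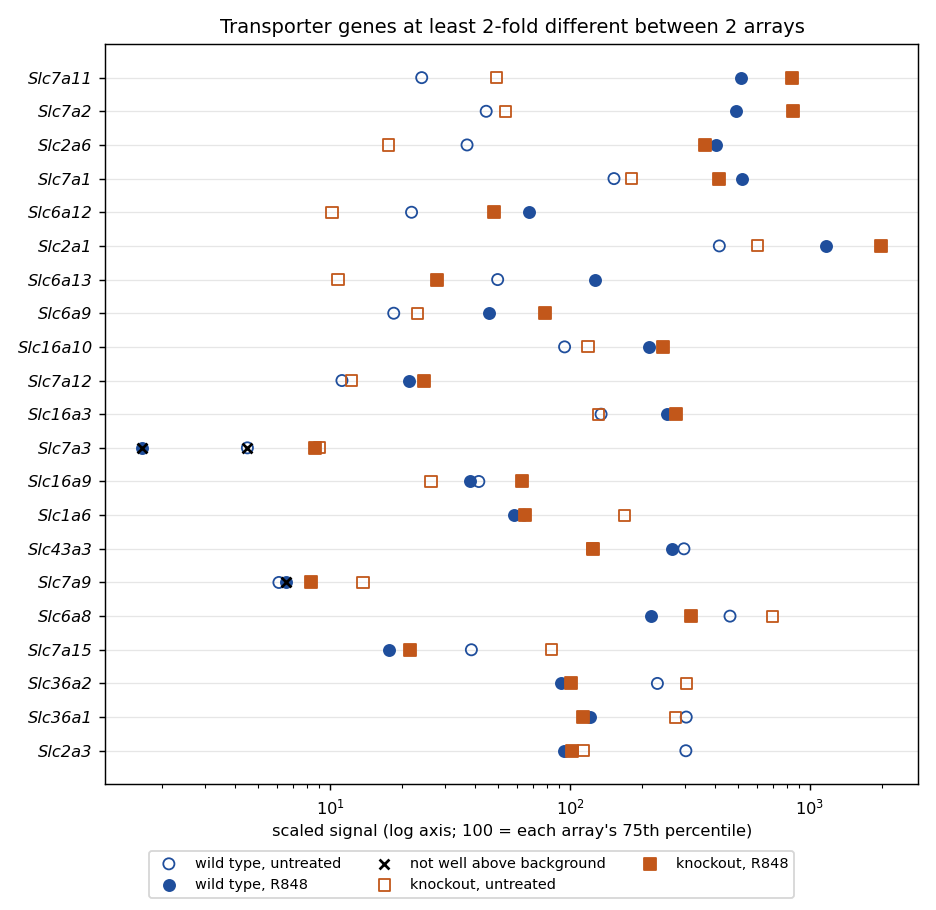
Scaled signal of the 21 genes that were at least 2-fold different in any comparison of 2 arrays, on a log axis where 100 is each array's 75th percentile, with circles for wild type and squares for knockout, open for untreated and filled for R848; crosses mark values not well above background. Genes run from the largest wild-type increase at the top to the largest decrease at the bottom. Slc7a3 and Slc7a9 have no wild-type response and are placed by their knockout response. Slc7a11, Slc7a2 and Slc2a6 show the widest gaps between open and filled symbols.

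Compared by family, Slc36 had the lowest median response, at -1.33 (log2) in wild type and -1.29 in the knockout, from 3 genes of which 2 were lower. Slc7 had the highest median in wild type, 0.28, with 3 of 13 measured genes higher and 1 lower; in the knockout its median was 0.07 with 4 of 15 higher and 1 lower. Slc2 had medians of 0.19 and 0.17, with 2 of 8 higher in each genotype. Slc6 had 3 of 12 higher and 1 lower in each genotype, with medians of 0.08 and -0.14. Slc16 had 1 of 12 higher in wild type and 3 in the knockout, with medians of -0.09 and -0.17. By its brightest probe no gene of Slc1 (5 genes), Slc3 (2), Slc38 (8) or Slc43 (3) was called in wild type. The medians of these families lay between -0.16 and 0.12 there. Called responses thus fell in Slc2, Slc6, Slc7, Slc16 and Slc36 in both genotypes. In all of these families but Slc36, most genes were not called. Across 9 alternatives the Slc36 median stayed between -1.35 and -1.10 in wild type and between -1.33 and -1.12 in the knockout, and those of Slc2 and Slc38 stayed above 0 in both genotypes. The Slc3 median, from 2 genes, ranged from 0.08 to 0.48 in wild type and from 0.05 to 0.77 in the knockout. The wild-type median of Slc7 ranged from 0.14 to 0.43, while in the knockout it fell just below 0 with the mean or median over probes. With median centring the Slc16 median turned positive in wild type and the Slc6 median in the knockout, and the knockout medians of Slc1 and Slc43 also changed sign with the setting. The families hold 2 to 15 genes and no difference between them was tested.

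**Figure D4:**
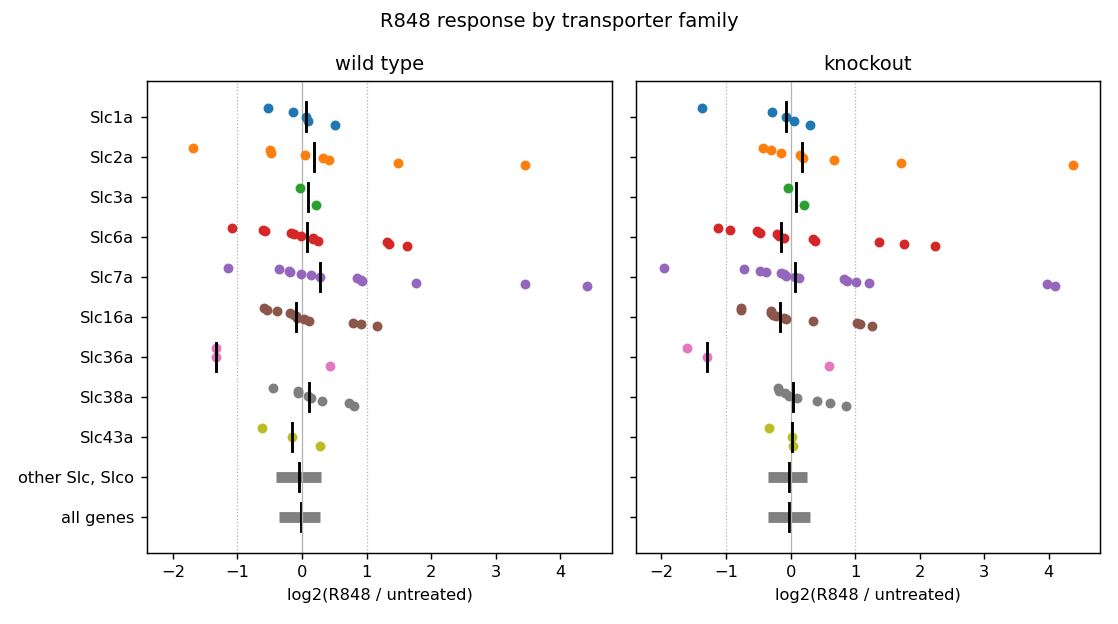
Response of each gene as log2(R848 / untreated) by family, wild type at the left and knockout at the right, 1 point per gene, with a vertical bar at each family's median and dotted lines at 2-fold. For the other Slc and Slco genes and for all genes the grey bar spans the middle quartiles. Only Slc36a has a median beyond 2-fold, and the far right points of Slc2a and Slc7a are Slc2a6, Slc7a2 and Slc7a11.

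Genotype made fewer differences than R848. Among untreated cells 5 of 68 transporters were at least 2-fold higher in the knockout and 5 lower, where 1.98% and 2.54% of 18518 genes were. With R848 none of 67 was higher and 2 were lower, where 2.40% and 1.80% of 18560 genes were. The median over the transporters was 0.08 (log2) untreated and 0.04 with R848, beside 0.05 and 0.04 over all genes. With normexp background correction and quantile normalization the untreated counts were 1 higher (Slc1a6) and 3 lower (Slc6a13, Slc2a3 and Slc43a3), and over all genes the higher share of calls moved from 43.7% to 23.8%. The genotype differences share their arrays with the responses, so a single array that stands apart enters both.

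Higher in the untreated knockout were Slc1a6 by 2.62-fold, Slc7a15 by 2.17-fold, Slc7a11 by 2.04-fold and the cystine and cationic amino acid light chain Slc7a9 by 2.24-fold. Slc7a3 was at least 2.004-fold higher, since it was not well above background in untreated wild type. With R848 the knockout was 1.11-fold higher for Slc1a6, 1.22-fold for Slc7a15 and 1.64-fold for Slc7a11, and at least 1.18-fold and 1.23-fold for Slc7a9 and Slc7a3. With median centring Slc7a11 and Slc7a3 were not called. All of Slc7a11's 4 probes were higher in the untreated knockout, by 0.38 to 1.75 (log2). Slc7a9 read 6.11 and 13.7 on wild type and knockout untreated, close to the lowest signals that count as above background (4.33 and 4.39 on these arrays).

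Lower in the untreated knockout were Slc6a13 by 4.63-fold, Slc2a3 by 2.68-fold, Slc43a3 by 2.41-fold, Slc6a12 by 2.14-fold and Slc2a6 by 2.13-fold. Slc6a13 was also 4.58-fold lower with R848, which made its genotype difference nearly equal at both times. Slc43a3 was 2.13-fold lower with R848 by its brightest probe, while its second probe was 1.501-fold higher there. Slc2a6, Slc6a12 and Slc2a3 differed between genotypes with R848 by -0.16, -0.49 and 0.11 (log2).

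Markers of other marrow cells differed with genotype. All 5 granulocyte precursor markers (Elane, Mpo, Ctsg, Prtn3 and Ms4a3) were lower in the knockout at both times, and their summed scaled signal was 9113 and 2005 in wild type untreated and with R848 and 676 and 231 in the knockout. The 3 measured basophil and mast cell markers of a list of 7 (Prss34, Kit and Gata2) were also lower in the knockout at both times, with sums of 1196 and 639 in wild type and 122 and 63.1 in the knockout; Mcpt8, Cpa3, Fcer1a and Ms4a2 are not in the table. None of these 8 markers was at background on any array. The granulocyte precursor markers were also lower with R848, all 5 in wild type and 3 in the knockout. So were 2 of the 3 basophil and mast cell markers in each genotype. Of the 8 macrophage markers none was at least 2-fold lower in the knockout at either time, and 1 was at least 2-fold higher with R848. Their sums were 63632 and 68637 in wild type and 73418 and 80752 in the knockout. Each of the dendritic cell, T cell, B cell, erythroid and megakaryocyte, and fibroblast lists had at most 1 of its 3 to 5 measured genes called between genotypes at either time. The part of these cells in the genotype differences of the transporters was not tested.

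**Figure D5:**
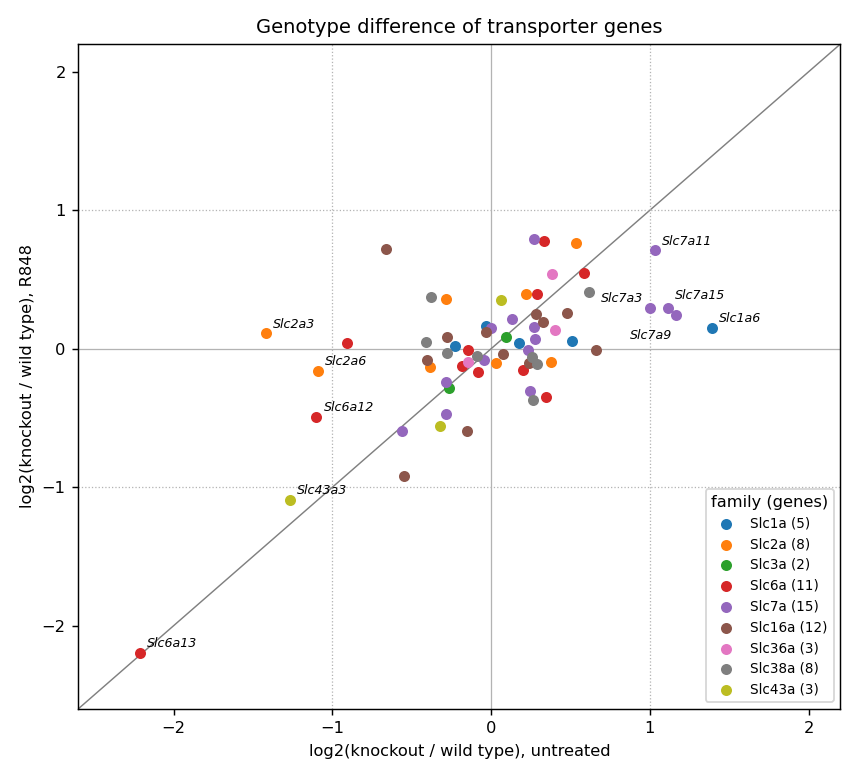
Genotype difference of each transporter gene as log2(knockout / wild type), untreated (x axis) against R848 (y axis), 1 point per gene, coloured by family, with dotted lines at 2-fold and a solid line of equal differences. Slc6a13 and Slc43a3 lie beyond 2-fold on both axes, and the other called genes lie beyond it on the untreated axis only.

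The difference between the responses, knockout minus wild type, was at least 2-fold higher for 2 of 68 transporters and lower for 1, where 3.53% and 2.36% of 18786 genes were. Slc2a3 and Slc16a9 were the higher genes, at 1.53 and 1.38 (log2), and Slc1a6 the lower one at -1.24. For Slc2a3 and Slc1a6 the genotypes differed by 0.11 and 0.15 with R848 and by -1.42 and 1.39 untreated, so by their brightest probes the gap lay on the untreated arrays. By the second probe of Slc2a3 the genotypes differed by -0.68 untreated and -0.93 with R848, and with the mean or median over probes it was not called. Slc7a11 differed between the responses by -0.32, Slc7a2 by 0.52 and Slc2a1 by 0.23. Slc2a6 differed by 0.93 by its brightest probe, and with the mean or median over probes it was called higher in the knockout's response.

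Beside the transporters, the list of the amino acid response with serine and asparagine synthesis had 5 of 18 genes at least 2-fold higher in each genotype and none lower, with medians of 0.38 and 0.35 (log2). Higher in both were asparagine synthetase Asns (1.55 and 1.11), the mitochondrial folate enzyme Mthfd2 (1.32 and 1.78), the factor Cebpb (1.33 and 1.71) and the stress-induced regulator Nupr1 (1.79 and 1.39). Phosphoglycerate dehydrogenase Phgdh, the entry of serine synthesis, was higher by 2.11 in wild type and 0.93 in the knockout, and Aldh18a1, which starts proline synthesis, by 0.12 and 1.13. Atf4 itself was at 0.71 and 0.85. Of 9 factors that govern these programmes, none was called higher in wild type and the NRF2 gene Nfe2l2 (1.104) in the knockout; the hypoxia target Vegfa was lower in both (-1.46 and -2.03). Of 6 measured genes of branched-chain amino acid and tryptophan breakdown, 1 was higher and 1 lower in each genotype, Bckdhb (1.03) in wild type and Bcat1 (1.08) in the knockout, with Bckdha lower in both (-1.19 and -1.05). Of the measured partner proteins, Emb and Txnip were lower in wild type. Txnip, which restrains glucose uptake through GLUT1, was at -1.37 in wild type and at -0.996, just short of 2-fold, in the knockout.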

How the data were processed

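Total RNA of 4 groups, 1 array each, was labelled with Cy3 and read on 1 slide in 1 scan, per the file headers. Agilent Feature Extraction 11.5.1.1 made the spot intensity values, per the submitters' processing notes. The deposited intensity used here is the processed signal on a linear scale, with the background already subtracted, and arrays had not been normalized to each other. The headers place the probe grid on mm9. The authors also deposited a table of 39374 spots, whose intensity columns equal the processed signal multiplied by a constant of each array (to 1% for 100% of spots), and which was used for gene names, to choose members and as an alternative. What sets these constants, and so the scale of the table (column medians 675 to 719.96), is not given in the labels or headers. The log2 ratios that the authors deposited in that table were not used.

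Here log2 of the processed signal was taken, non-uniform and outlier spots (70 to 115 per array) were left out, spots of a probe were averaged, and each array's 75th percentile was subtracted. No spot was saturated. Of the probes, 60.6% to 71.4% were well above background on an array, meaning that at least 0.5 of a probe's spots were marked so. A difference needed a probe to be well above background on either array compared. A dimmer array below background was set to the lowest signal above background on that array, or to its own value where that was higher, and the difference is written "at least". The brightest probe stood for its gene. Other probes of a gene are given where they bear on a call or go another way for a gene described. Genes named are all members at least 2-fold different in any comparison of 2 arrays, a list of well-studied members, and members of the pathway lists at least 2-fold different in a response. A few genes of the families and lists are not reported here by name. The members and lists were chosen with earlier results of these data known.

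Alternatives were median centring, quantile normalization, normexp background correction (limma 3.58.1 in R 4.3.3, offset 50) with quantile normalization, the authors' scaled table, other filters on dim probes, the mean or median over probes, leaving out marked areas of the slide, and a 1.5-fold threshold. The median over probes was chosen after seeing the data. The scanner files as used here gave no mean signal, so normexp was run on the median signal. Differences of known size were recovered in simulated arrays made from 1 real array. They were added only to probes well above background on every array, with noise below the spot SD of dim probes. The simulation held no variation between cultures, so it checks the calculation and not the reliability of the calls. Promoter windows were matched by symbol (46 of 68 genes). Scripts ran in Python 3.11.15 with numpy 2.4.6 and pandas 2.3.3. With 1 array a group, the number of arrays limits precision.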

Additional observations from a re-analysis of the deposited data

Results flagged for a closer look

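Of the family probes on the array, 40 are not in the processed table, and 28 of these were well above background on no array. The other 12 were so on at least 1 array, and 4 of them are given because 1 array stood at least 2-fold above untreated wild type. A second probe of Slc2a9, the urate carrier, read 32.8 on knockout untreated, 2.56 and 7.38 on wild type untreated and with R848, and 1.14 on knockout with R848. A second probe of Slc7a9 read 25.2 on knockout untreated and 1.08 to 1.58 on the other arrays, where it was not well above background. The dopamine carrier Slc6a3 read 12.8 on knockout untreated and 6.11 on wild type untreated. A further probe of Slc38a10 read 19.4 on wild type with R848 and 6.84 on wild type untreated. The member probes of Slc2a9 and Slc38a10 were called in no comparison. This choice took only higher arrays, and other probes differed the other way. A second probe of Slc7a14 read 15.4 on wild type untreated and was not well above background elsewhere. Its untreated knockout value was at least 3.51-fold lower. A probe of Slc6a20b, a gene with no member probe, was at least 2.77-fold lower with R848 in the knockout.

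Slc16a9 and Slc2a3 were given because 1 effect of each was over 2-fold and the other was small and of opposite sign. The response of Slc16a9 was -0.13 (log2) in wild type and 1.26 in the knockout. At a scaled signal of 30 to 100 the median spot SD in the wild-type response was 0.14, so the wild-type value was within it. The genotype difference of Slc2a3 was -1.42 untreated and 0.11 with R848. With 1 array per group neither difference could be tested. The second probe of Slc16a9 gave the same directions (-0.42 and 1.71), and the second probe of Slc2a3 did not, at -0.68 untreated and -0.93 with R848.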

How the results depend on the processing

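No paired analysis was possible because each group holds 1 array and the labels number no replicates, and no array could be left out. Of 100 recomputed counts of transporters 79 stayed within 1.5 times their main value, and 40 of 45 recomputed medians moved by less than the spread between spots. Some settings could hardly move the counts. No member probe lay in a marked area, and the authors' table differs by a constant of each array. These 2 settings, and a signal above background required on every array, each kept all 10 counts in that range. Normexp with quantile normalization moved 5 counts out of it, and the 1.5-fold threshold 8. The sign of the knockout response median, -0.05 (log2) in the main setting, depended on the scaling. So did that of the genotype median with R848, which was 0.043, and -0.0032 with median centring and -0.0035 with quantile normalization. Median centring gave 3 lower in the wild-type response, medians of 0.21 and 0.092 (log2) in the wild-type and knockout responses, and 3 higher in the untreated knockout. Quantile normalization gave a knockout response median of 0.0080 and 3 lower for the difference between responses. Normexp with quantile normalization gave 6 higher in the knockout response with a median of -0.000451, 1 higher and 3 lower with a median of 0.029 between untreated genotypes, 1 lower with R848, and 1 higher for the difference between responses. The mean and the median over probes each gave 1 lower between genotypes with R848 and 2 lower for the difference between responses. Without a filter on dim probes 1 gene was higher between genotypes with R848. At 1.5-fold the counts were 16 higher and 8 lower in the wild-type response, 9 lower in the knockout response, 8 higher between untreated genotypes, 5 higher and 5 lower with R848, and 7 higher and 8 lower for the difference between responses. Over all genes, the share of higher among calls between genotypes with R848 was 57.1%, against 72.6% with no filter, 44.7% with normexp and quantile normalization and 43.7% with a signal above background required on every array. The cause of these moves was not tested.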

Other observations

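Apart from the neighbours Slc6a12 with Slc6a13 and Slc36a1 with Slc36a2, 3 other pairs of members lie 0.375 to 73.0 kb apart on a chromosome. Whether other genes lie between them was not examined. Slc38a1 and Slc38a2 differed by -0.44 and -0.05 (log2) in the wild-type response and by -0.20 and 0.41 in the knockout response. Slc16a11 and Slc16a13 differed by -0.10 and 0.79 in wild type and by -0.77 and 0.34 in the knockout. Slc43a1 and Slc43a3 differed by 0.27 and -0.16 in wild type and by 0.04 and 0.01 in the knockout. None of these 3 pairs held a called response.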
